A study of Mus musculus with 12 samples.

Results

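The circadian clock genes described here are Per1, Per2, Per3, Nr1d1, Nr1d2, Dbp, Tef, Cry1, Clock and Bhlhe40, measured in BW5147 cells, a mouse T cell lymphoma line of thymic origin. They were read by all probe sets (groups of short probes that report 1 transcript) for which the array annotation gives a single symbol equal to 1 of these names. That rule found 18 probe sets of 10 genes among 22626 probe sets of 12393 genes. A filter on low signals kept 15 of the 18, with at least 1 for each of the 10 genes, beside 13575 probe sets in all.

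The cells were exposed for 8 h to 1 of 6 conditions, each measured on 2 Affymetrix arrays numbered 1 and 2, which makes 12 arrays. The conditions were no stimulus (unstimulated), interleukin-9 alone (IL-9, a cytokine that supports T cell survival, 100 U/ml), the chemokine CCL1 alone (100 U/ml), dexamethasone alone (Dex, a synthetic agonist of the glucocorticoid receptor, 100 ng/ml), Dex with IL-9 and Dex with CCL1. All arrays came from this 1 line, cultured in the same serum-supplemented medium, and nothing in the labels says whether number 1 and number 2 were separate cultures. P-values thus reflect only how far these arrays differ, which could be a technical spread, and the number of arrays limits the precision. Values are signals on a linear scale, and changes are differences of log2(signal + 16), a scale on which changes of low signals are understated.

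The molecular clock is a feedback loop of transcription. CLOCK, paired with its partner ARNTL, activates genes that carry E-box motifs, among them those of the period and cryptochrome proteins, which return to the nucleus and repress CLOCK and ARNTL. A second loop runs through the nuclear receptors NR1D1 and NR1D2, which repress Arntl, and the output factors DBP and TEF carry the rhythm to further genes through D-box motifs. Glucocorticoids can reset clocks in many tissues, and Per1 is known as a direct target of the glucocorticoid receptor.

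The label Dex was checked first with well-known glucocorticoid targets. The mean of 7 such genes (Tsc22d3, Fkbp5, Ddit4, Dusp1, Bcl2l11, Gpr65 and Zfp36, while Klf9 lay below the filter), centred on the mean of 11 arrays, was -1.03 to -0.85 log2 in the unstimulated and IL-9 arrays numbered 2, and -1.09 in CCL1 2. In the 3 arrays numbered 1 that are labelled without Dex it was 0.20 to 0.37, as high as the 0.13 to 0.30 of the arrays labelled with Dex and numbered 1. Zfp36, part of this mean, did not follow Dex in number 2. Its differences were -0.15 for Dex minus unstimulated and 0.18 for Dex with IL-9 minus IL-9. The targets thus did not separate unstimulated 1, IL-9 1 and CCL1 1 from the arrays labelled with Dex, and the cause was not tested. These targets were chosen with earlier results of these data known. Dex was compared within each number. In the main fits only its interactions with the cytokines ran over both numbers. Dex 2 stood apart from the rest, with a correlation of 0.973 to the median of the other arrays against 0.986 to 0.993 for the others. CCL1 2, hybridised to an array of a different design, entered none of the main fits, but its signals are given. Of 9 T lineage genes on the array 8 passed the filter and Cd5 did not. Their summed signals were 5137 to 6943 per array, led by Ptprc with a median of 2667. None of 3 B lineage genes passed it, with sums of 4.30 to 18.6. Of the myeloid, fibroblast and epithelial markers 2 of 4, 1 of 3 and 1 of 3 passed, with sums of at most 34.1, 27.5 and 23.0.

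The promoters of the 2 genes that passed the test, Per1 and Nr1d1, and of Nr1d2, the close relative of Nr1d1, show what control sequences these genes carry at their starts. They are RefSeq windows on GRCm38.p6, from 250 bases before to 50 bases after a start site, printed 5′ to 3′ along the gene. Capitals mark matches to the motifs searched for.
Per1, upstream start site, chr11:69098699-69098998, plus strand: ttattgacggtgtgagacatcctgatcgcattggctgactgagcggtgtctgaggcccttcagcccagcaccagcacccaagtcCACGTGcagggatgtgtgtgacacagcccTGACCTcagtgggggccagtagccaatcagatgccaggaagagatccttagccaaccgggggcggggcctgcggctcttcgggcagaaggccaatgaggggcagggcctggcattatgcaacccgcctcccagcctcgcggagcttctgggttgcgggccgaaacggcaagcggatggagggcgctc
Per1, downstream start site, chr11:69099902-69100201, plus strand: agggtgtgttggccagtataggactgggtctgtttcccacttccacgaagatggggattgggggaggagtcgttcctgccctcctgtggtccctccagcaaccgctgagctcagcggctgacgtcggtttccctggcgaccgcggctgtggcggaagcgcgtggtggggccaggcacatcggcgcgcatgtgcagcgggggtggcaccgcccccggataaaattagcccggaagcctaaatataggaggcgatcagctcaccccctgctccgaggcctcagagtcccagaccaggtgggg
Nr1d1, chr11:98775328-98775627, minus strand: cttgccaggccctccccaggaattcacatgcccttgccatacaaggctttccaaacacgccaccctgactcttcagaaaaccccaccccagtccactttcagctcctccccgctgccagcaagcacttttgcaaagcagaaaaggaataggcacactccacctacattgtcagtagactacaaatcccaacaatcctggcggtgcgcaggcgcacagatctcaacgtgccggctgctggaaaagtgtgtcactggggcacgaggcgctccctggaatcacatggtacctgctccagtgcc
Nr1d2, chr14:18239057-18239356, minus strand: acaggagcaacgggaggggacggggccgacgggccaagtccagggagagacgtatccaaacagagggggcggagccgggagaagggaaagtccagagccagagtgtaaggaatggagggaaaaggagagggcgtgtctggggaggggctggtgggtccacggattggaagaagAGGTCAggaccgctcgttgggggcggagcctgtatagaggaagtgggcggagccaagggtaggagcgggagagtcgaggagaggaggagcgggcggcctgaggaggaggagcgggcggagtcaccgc
The upstream Per1 window held the E-box CACGTG, the motif bound by CLOCK with ARNTL, from base -166. It also held the half-site AGGTCA, the core of the element bound by the ROR and NR1D receptors, on the reverse strand (TGACCT) from base -137. The Nr1d2 window held AGGTCA from base -77. The downstream Per1 window and the Nr1d1 window held no match, which says only that these letters are not in these windows.

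Windows were found for 8 of the 10 genes, 12 windows in all, and none was given for Per2 or Bhlhe40. Each motif was searched on both strands. The E-box was in 4 of the 12 windows (1 of Per1, both of Tef and that of Cry1), while 7.15% of 32851 windows of all genes held it. The D-box TTATGTAA or TTACGTAA, the motif of DBP and TEF, was in 1 of the 12, that of Per3, which held TTATGTAA from bases -205 and -158. Of all windows 1.06% held a D-box. AGGTCA was in 3 of the 12 (Per1, Nr1d2 and Clock) against 16.3% of all. The cAMP response element TGACGTCA was in 0 of the 12 and 1.79% of all, and the glucocorticoid response element, a palindrome of half-sites with a spacer of any letters, was in 0 of the 12 and 0.475% of all. No window of Tsc22d3, Fkbp5, Klf9, Ddit4, Dusp1, Bcl2l11, Gpr65 or Zfp36 held the glucocorticoid response element either. Its absence from the clock windows thus cannot tell about glucocorticoid control. These are matches of letters and not measured binding.

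Within the arrays numbered 2, Per1 was higher and Nr1d1 lower with Dex, and no other clock gene passed the test there. These were 2 of 15 tested clock probe sets, 1 in each direction. Nr1d1 passed the filter through its arrays without Dex, so its call is not independent of the filter and only describes these arrays. Over all 13575 probe sets 0.597% passed in this comparison, 0.508% higher and 0.0884% lower. At an unadjusted p under 0.05 the count was 4 of 15, adding Nr1d2 and Bhlhe40, and 10.5% over all. The median change of the 15 was 0.056, and -0.012 over all probe sets. Within the arrays numbered 1 no clock probe set passed, nor did any of the 13575 (0%). There the unadjusted count was 0 of 15 and 2.50% over all, and the 15 changes ran from -0.18 to 0.28.

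**Figure D1:**
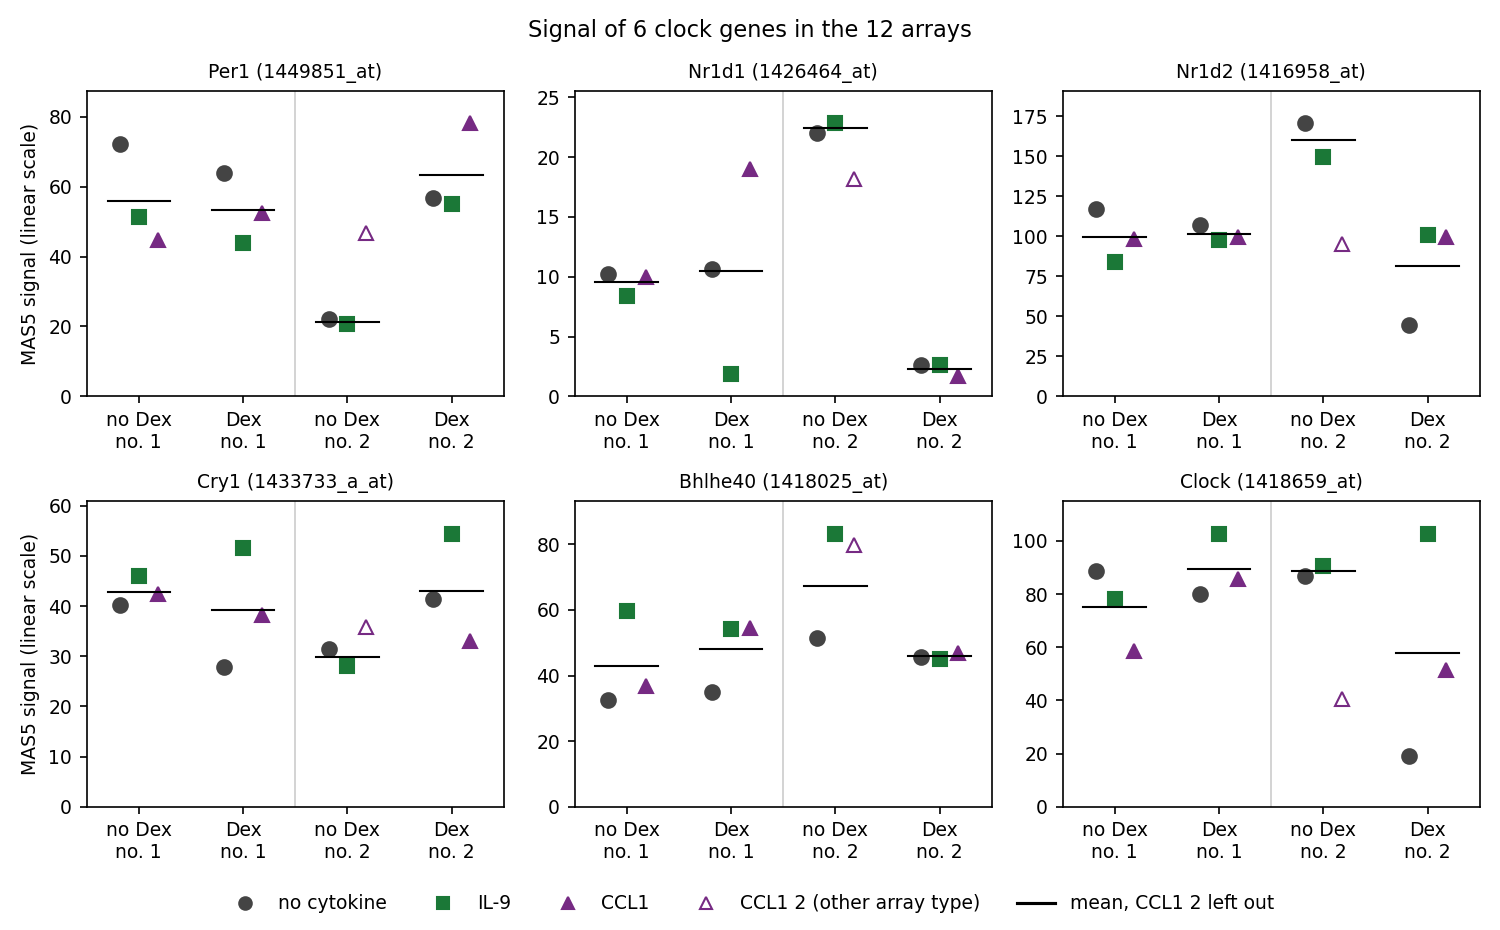
Signal on the linear scale (vertical axes) of 6 clock genes, 1 panel each, in the 12 arrays, grouped by Dex label and replicate number; symbols give the cytokine, lines the group mean without CCL1 2, and the open triangle is CCL1 2 from the other array type. In Per1 the unstimulated 2 and IL-9 2 arrays lie lowest at 22.1 and 20.6, and in Nr1d1 they lie highest at 22.0 and 22.8.

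Per1 encodes a period protein of the repressor complex and responds quickly to hormonal cues. In the arrays numbered 2, its signal was 22.1 unstimulated and 20.6 with IL-9, against 56.7 with Dex, 54.9 with Dex and IL-9 and 78.1 with Dex and CCL1. All 3 arrays with Dex thus lay above both without it, and above CCL1 2 on the other array type, at 46.7. The change was 1.07 (SE 0.20, 95% interval 0.64 to 1.50), or 2.10-fold on the shifted scale, with adjusted p = 0.0334. In the arrays numbered 1 the signal was 72.1 unstimulated, 51.3 with IL-9 and 44.7 with CCL1, and 64.01, 43.9 and 52.5 in the matching arrays with Dex. These overlapped, and the change there was -0.044 (SE 0.17, interval -0.41 to 0.33).

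Grouped by label and number, mean Per1 signals were 56.0 ± 14.3 (SD, n = 3) without and 53.5 ± 10.1 (SD, n = 3) with Dex in number 1, and 21.3 ± 1.01 (SD, n = 2) without and 63.2 ± 12.9 (SD, n = 3) with Dex in number 2. These groups pool the cytokine conditions. Unstimulated 2 and IL-9 2 were the lowest of the 12 arrays, while CCL1 2, not counted in these means, was above CCL1 1 and Dex with IL-9 1. The change in number 2 minus that in number 1 was 1.11 (SE 0.26), with adjusted p = 0.173, so the difference itself did not pass the test. Among arrays labelled without Dex, number 1 was higher than number 2 by 0.93 (SE 0.20, adjusted p = 0.0580). Over the 11 arrays of the fits, Tsc22d3, which encodes a glucocorticoid-induced leucine zipper protein, correlated with Per1 at r = 0.872. The other clock genes ran from -0.781 (Bhlhe40) to 0.838 (Per3, near the filter), with Nr1d2 at -0.709 and Dbp at -0.144. The share of all genes with such values was not counted. These arrays share the treatments and the low targets of unstimulated 2 and IL-9 2. CCL1 2 did not follow this: its target mean was the lowest of the 12 arrays and Tsc22d3 was at 70.8, but its Per1 signal of 46.7 lay among those of the arrays numbered 1. Whether the state of the arrays numbered 1 was set by glucocorticoid exposure was not tested.

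The Per1 call in number 2 held in 3 of 11 fits that each left out 1 array, those without unstimulated 1, Dex 2 or CCL1 1, and was lost without any 1 of the other 8, with changes of 0.94 to 1.25 and adjusted p of 0.0129 to 0.422. It was also lost with CCL1 2 added (0.82, adjusted p = 0.0989), without a filter (adjusted p = 0.0985) and with a pseudocount of 64 in place of 16 (0.57, adjusted p = 0.0603), and with 1 mean per group over both numbers the change was 0.40.

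Per2, a period gene with the same role in the repressor complex, had signals of 6.49 unstimulated and 8.88 with IL-9 in number 2, against 22.3 with Dex, 14.3 with Dex and IL-9 and 6.97 with Dex and CCL1. The groups overlapped through the array with Dex and CCL1, and the change of 0.35 (SE 0.20, adjusted p = 0.621) did not pass. In number 1 the signals were 24.6, 19.1 and 24.1 without Dex and 17.3, 12.6 and 24.8 with it, again overlapping. Among arrays labelled without Dex, number 1 exceeded number 2 by 0.71 (adjusted p = 0.298), which did not pass. The 3 numbered 1 lay above unstimulated 2 and IL-9 2, and the share of all probe sets that did so was not counted. The second Per2 probe set, 1417603_at, did not pass the filter, with signals of 0.51 to 9.19 over 12 arrays.

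Per3, the period gene least needed for the rhythm itself, was read by 3 probe sets, of which only 1421087_at passed the filter. Its signal ran from 4.26 to 15.2 with a median of 10.8, near the filter's 6.32, and its change with Dex in number 2 was 0.31 (adjusted p = 0.570). The other probe sets had signals of at most 11.1 and 18.9.

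Cry1, the cryptochrome that closes the repressive limb with the period proteins, had signals of 31.5 unstimulated and 28.1 with IL-9 in number 2, against 41.5 with Dex, 54.5 with Dex and IL-9 and 33.1 with Dex and CCL1. The 3 arrays with Dex lay above both without it, by a small margin for Dex with CCL1. The change was 0.39 (SE 0.19, adjusted p = 0.499) and did not pass. With CCL1 2, at 35.9, the groups overlapped. In number 1 signals were 40.2, 46.1 and 42.4 without and 27.9, 51.5 and 38.2 with Dex, so that the lowest and the highest both carried Dex.

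In number 2, 2 of the 15 clock probe sets (Per1 and Cry1) were higher in every array with Dex than in either array without it, as were 10.1% of all probe sets, and 3 of 15 (Nr1d1, Nr1d2 and Bhlhe40) were lower in every array with Dex, as were 10.7% of all. With CCL1 2 counted too, a recount added after the data were seen, 1 of 15 was higher (Per1), against 5.91% of all, and 2 of 15 were lower (Nr1d1 and Bhlhe40), against 6.11% of all. In number 1 the only such clock probe set was 1416959_at of Nr1d2, higher with Dex, where 5.23% of all were higher and 3.48% lower.

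Nr1d1 encodes a heme-binding nuclear receptor that represses Arntl. In number 2 its signal was 22.0 unstimulated and 22.8 with IL-9, against 2.66 with Dex, 2.59 with Dex and IL-9 and 1.68 with Dex and CCL1. The 3 arrays with Dex were all below the filter's signal and far under the 2 without it, and CCL1 2, at 18.2, sat with the latter. On the scale of log2(signal + 16), the Nr1d1 mean over the arrays with Dex of both numbers lay under the filter. The gene thus entered the test through its arrays without Dex. The change was -1.14 (SE 0.23, 95% interval -1.64 to -0.65), with adjusted p = 0.0499. Since the arrays with Dex were at such low signals, the size of this change is set by the pseudocount (-0.41 with 64 and -3.00 with 1 in place of 16), and no fold is given.

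In number 1 the Nr1d1 signal was 10.2 unstimulated, 8.36 with IL-9 and 10.0 with CCL1, and 10.7 with Dex, 1.85 with Dex and IL-9 and 19.0 with Dex and CCL1. The 3 arrays labelled without Dex sat close together, between both sets of number 2, and the 3 with Dex spread around them, so the change was 0.0010 (SE 0.20). The change in number 2 minus that in number 1 was -1.14 (SE 0.30, adjusted p = 0.246), which did not pass. Among arrays labelled without Dex, number 1 minus number 2 was -0.66 (adjusted p = 0.327).

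The Nr1d1 call was at the edge of the threshold. It held in 1 of 11 fits with an array left out (without Dex with IL-9 1) and was lost without any 1 of the other 10, with changes of -1.28 to -1.01 and adjusted p of 0.0431 to 0.397. With CCL1 2 added it held (-1.01, adjusted p = 0.0303), but it was lost without a filter (adjusted p = 0.108), without the intensity trend (0.0527), with a pseudocount of 1 (adjusted p = 0.135) and with 1 mean per group (-0.44), and a filter at the 60th percentile removed the gene.

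Nr1d2, a paralog with an overlapping repressor role, was read by 1416958_at at 171 unstimulated and 149.9 with IL-9 in number 2, against 44.4 with Dex, 101 with Dex and IL-9 and 99.8 with Dex and CCL1. All 3 arrays with Dex were lower, and Dex 2 was by far the lowest. The change was -0.96 (SE 0.25, adjusted p = 0.205), and it was -0.52 without Dex 2. In number 1 the signals of 117, 83.7 and 98.7 without Dex and 107, 97.8 and 99.5 with it overlapped, and CCL1 2 gave 95.02, below unstimulated 2 and IL-9 2. The other probe set, 1416959_at, ran from 4.80 to 24.1 with a median of 13.0, and changed by -0.14 in number 2.

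**Figure D2:**
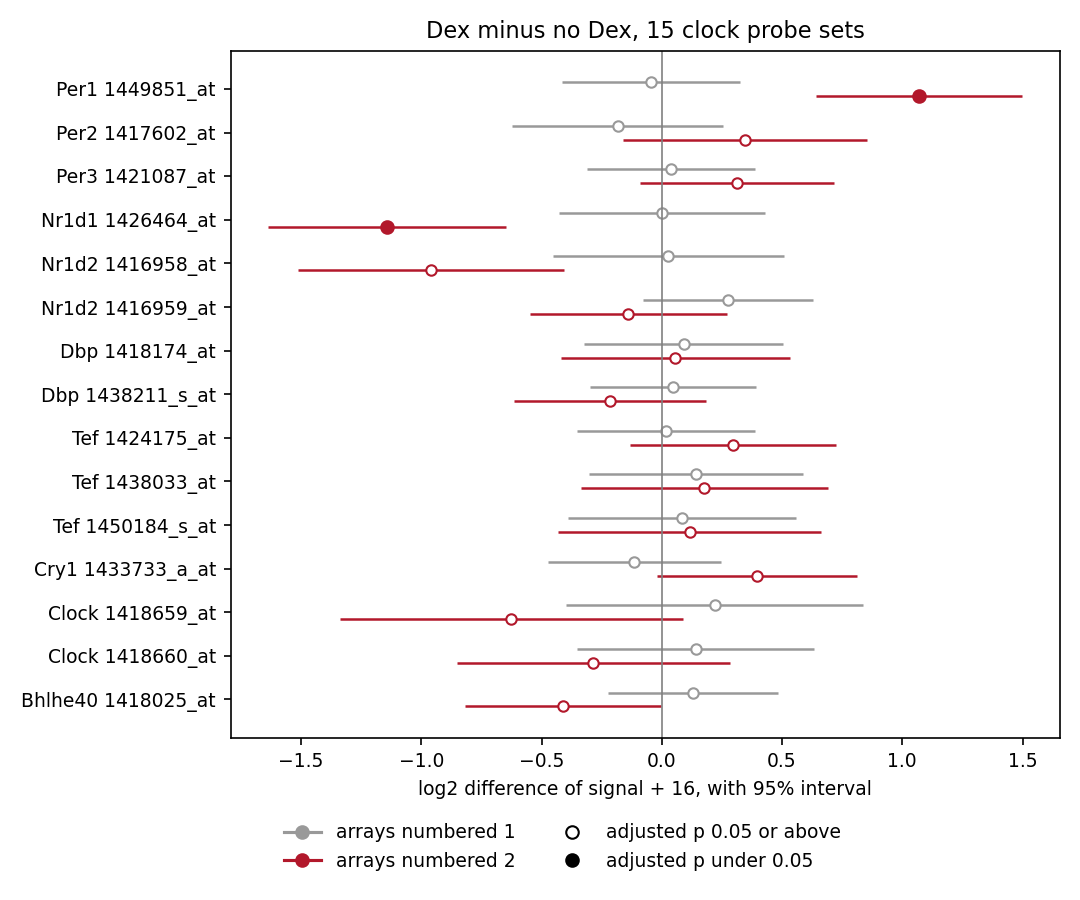
Change with Dex for the 15 tested clock probe sets (horizontal axis, log2 difference of signal + 16, with 95% intervals), in number 1 and in number 2; filled symbols have an adjusted p under 0.05. In number 2 Per1 lies at 1.07 and Nr1d1 at -1.14, and in number 1 all 15 lie between -0.18 and 0.28.

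Clock, the activator of the loop, gave signals at 1418659_at of 86.8 unstimulated and 90.5 with IL-9 in number 2, against 19.2 with Dex, 102.8 with Dex and IL-9 and 51.6 with Dex and CCL1. The arrays overlapped, and Dex 2 alone was far below the rest. The change of -0.63 (SE 0.33, adjusted p = 0.529) became -0.066 without that array. In number 1 signals were 88.7, 78.1 and 58.5 without and 80.1, 102.5 and 85.7 with Dex, also overlapping. The second Clock probe set, 1418660_at, had a median of 24.1 and was lowest in Dex 2, at 6.05, and in CCL1 2, at 6.08. In CCL1 2 the first probe set gave 40.7, its second lowest value.

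Bhlhe40, a repressor that competes for E-boxes and is also induced in activated T cells, had signals of 51.3 unstimulated and 83.3 with IL-9 in number 2, against 45.7, 45.0 and 46.8 with Dex alone, with IL-9 and with CCL1. The arrays with Dex were close together and below both others, and below CCL1 2, at 79.8. The change was -0.41 (SE 0.19, unadjusted p = 0.0484, adjusted p = 0.472). In number 1 the signals were 32.6, 59.6 and 36.7 without and 35.1, 54.2 and 54.6 with Dex, which overlapped. Its correlation with Tsc22d3 over 11 arrays was r = -0.781, again with shared treatments.

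Dbp and Tef encode output factors that bind D-boxes. Dbp at 1438211_s_at read 62.5 unstimulated and 41.7 with IL-9 in number 2, against 63.6 with Dex, 33.1 with Dex and IL-9 and 27.1 with Dex and CCL1. In number 1 it read 39.4, 28.6 and 35.5 without Dex, and 46.6, 30.1 and 32.6 in the matching arrays with it. Arrays with and without Dex overlapped in both numbers, and the highest array of each set had no cytokine. The change with Dex in number 2 was -0.21 for this probe set, and 0.056 for 1418174_at, whose signals ran from 17.7 to 41.0. Tef was read at 40.01 to 75.3 by 1424175_at, with a change of 0.30, and its other probe sets changed by 0.18 and 0.12. None of these passed.

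For the change in number 2 minus that in number 1, 0 of 15 clock probe sets passed and 0.206% of all did. In simulated data this comparison recovered 36% of changes of 1 log2. The unadjusted count was 4 of 15 and 10.1% of all, with Per1, Nr1d1, Nr1d2 (-0.99) and Bhlhe40 (-0.54). The arrays labelled without Dex were compared between numbers in the same fit, where 0 of 15 passed against 0.796% of all, and the unadjusted count was 5 of 15 and 9.17% of all. With Dex in both numbers, 0 of 15 passed against 0.0221%, with an unadjusted count of 3 of 15 and 15.8% of all. The 3 were Nr1d1 (0.48), 1416959_at of Nr1d2 (0.36) and Clock (0.68), while Per1 differed by -0.19. Single arrays decided some of these calls. Without Dex, Per1 passed when Dex 2, Dex with CCL1 2 or CCL1 1 was left out (lowest adjusted p = 0.0146), and with quantile normalization (0.0434), median centring (0.0214), a pseudocount of 1 (0.0362) or 1 probe set per gene (0.0375). Nr1d2 passed there without Dex 2 (adjusted p = 0.0283), a fit in which the calls over all probe sets rose from 108 to 217. With Dex, Clock passed without Dex with IL-9 2 (adjusted p = 0.0416), where the calls over all rose from 3 to 528. These comparisons share arrays with each other and with the Dex comparisons.

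**Figure D3:**
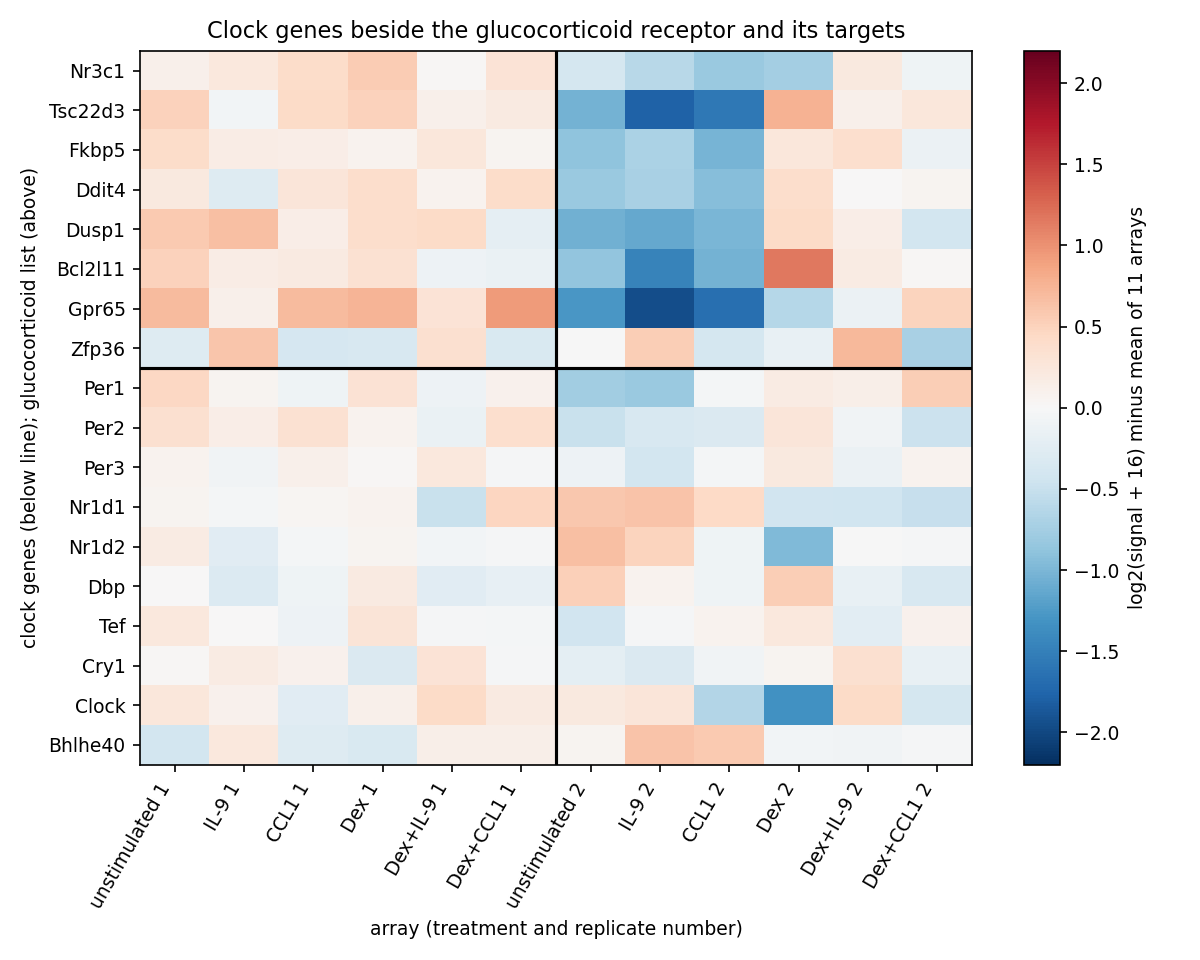
Log2(signal + 16) minus the mean of 11 arrays (colour scale) for the glucocorticoid receptor gene Nr3c1 and 7 of its targets (above the horizontal line) and the 10 clock genes (below it), 1 probe set per gene, in 12 arrays ordered by replicate number and treatment. The column pair unstimulated 2 and IL-9 2 is low in Tsc22d3, Fkbp5, Ddit4, Dusp1, Bcl2l11, Gpr65 and Per1 and high in Nr1d1 and Nr1d2, and Dex 2 is low in Nr1d2 and Clock.

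The cytokines were then compared with no cytokine, with both Dex labels and both numbers in 1 fit. No clock probe set passed for IL-9, while 0.818% of all did, or for CCL1, while 0.324% of all did. The unadjusted counts were 2 of 15 for IL-9 and 1 of 15 for CCL1, against 13.5% and 10.8% of all. The median of the 15 was -0.14 with IL-9 and -0.08 with CCL1, and -0.01 over all probe sets in each case. Both comparisons share the arrays without cytokine. With 1 array left out, the calls over all probe sets ran from 14 (without Dex with IL-9 1) to 153 (without Dex 2) for IL-9, where they were 111, and from 2 (without Dex 1) to 88 (without Dex 2) for CCL1, where they were 44, with 0 clock probe sets in each of these fits.

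Dbp at 1438211_s_at was the clock probe set with the smallest p in each. It was lower with IL-9 in 4 of 4 matched pairs of arrays, with single differences of -0.70 to -0.31. The fitted change was -0.47 (SE 0.14, adjusted p = 0.163). With CCL1 it was lower in 3 of 3 pairs, with a fitted change of -0.45 (SE 0.15, adjusted p = 0.315). The lowest single difference for each cytokine, -0.70 and -0.88, came from the pair with Dex 2. Without Dex 2 the fitted changes were -0.36 with IL-9 and -0.31 with CCL1. The other Dbp probe set, 1418174_at, was lower with IL-9 in 2 of 4 pairs and with CCL1 in 3 of 3, with a change of -0.35 for CCL1. The share of all probe sets with every pair in 1 direction was not counted. Pair counts here and below thus only describe these arrays.

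Bhlhe40 was higher with IL-9 in 3 of 4 pairs, with single differences of -0.02 to 0.64. The fitted change was 0.41 (SE 0.14, adjusted p = 0.225), and with CCL1 it was 0.23, higher in 3 of 3 pairs. The exception for IL-9 was Dex 2 against Dex with IL-9 2, at 45.7 and 45.0. Clock changed with IL-9 by 0.49 (SE 0.25, adjusted p = 0.415), with single differences of -0.15 to 1.75, of which the highest is the pair with Dex 2. Per1 was lower with IL-9 in 4 of 4 pairs, with differences of -0.39 and -0.42 in number 1 but only -0.055 and -0.036 in number 2. The fitted Per1 change was -0.22 (SE 0.15, adjusted p = 0.552). Nr1d1 changed by -0.17 with IL-9 and 0.13 with CCL1.

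**Figure D4:**
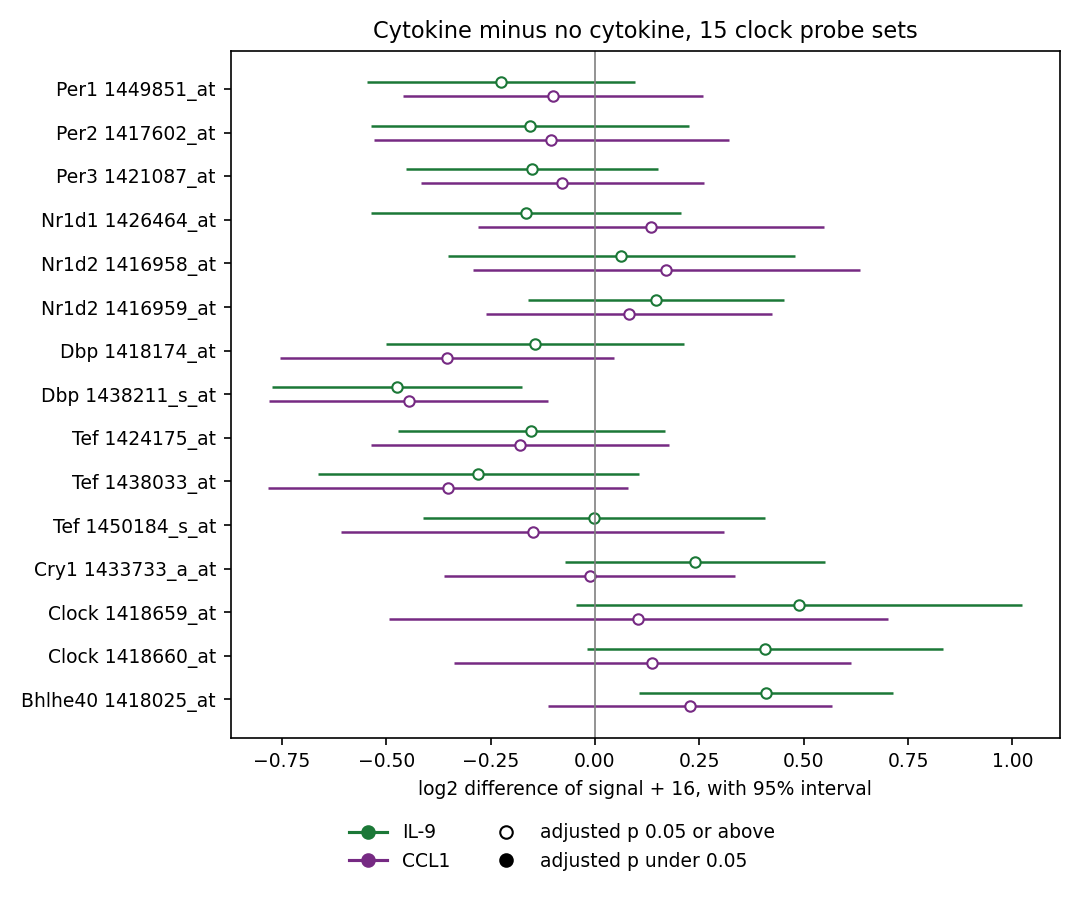
Change with IL-9 and with CCL1 for the 15 tested clock probe sets (horizontal axis, log2 difference of signal + 16, with 95% intervals); all symbols are open, since no adjusted p was under 0.05. Dbp 1438211_s_at lies lowest for both, at -0.47 and -0.45, and Clock and Bhlhe40 lie highest for IL-9, at 0.49 and 0.41.

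Whether a cytokine acted differently with Dex was tested by interaction terms. With either cytokine 0 of 15 clock probe sets and 0 of 13575 probe sets (0%) passed. These terms run over both numbers and count unstimulated 1, IL-9 1 and CCL1 1 as without Dex, despite their target levels. In simulated data they recovered 15% (IL-9) and 0% (CCL1) of changes of 1 log2, so such changes could be missed. The unadjusted counts were 1 of 15 for IL-9, which was Clock, and 0 of 15 for CCL1, against 3.14% and 3.82% of all. Clock had an interaction of 1.08 (SE 0.39, unadjusted p = 0.0193) with IL-9 and 0.95 with CCL1. Without Dex 2 they were 0.50 and 0.37. Without Dex 1, which leaves Dex 2 as the only array with Dex alone, the Clock terms were 1.66 (adjusted p = 0.0116) and 1.53 (adjusted p = 0.0493), and that of Nr1d2 with IL-9 was 1.24 (adjusted p = 0.0197). Over all probe sets 374 and 194 passed in that fit.

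Other genes of the clock were followed through a list of 27, of which 24 were on the array and 19 were tested by 41 probe sets. In all 9 comparisons 0 of the 41 passed. At an unadjusted p under 0.05 there was 1 for Dex in number 1, where 2.50% of all probe sets had such a p, 6 for Dex in number 2 (10.5% of all), 8 for IL-9 (13.5%) and 4 for CCL1 (10.8%). Arntl, the partner of Clock, changed by -0.13 with Dex in number 2 and Cry2 by -0.22. Nfil3, a repressor at D-boxes that opposes DBP and TEF and serves in lymphocyte development, had the smallest unadjusted p of the list there.

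Its signals in number 2 were 36.9 unstimulated and 41.4 with IL-9, against 68.7 with Dex, 88.7 with Dex and IL-9 and 49.9 with Dex and CCL1. All 3 with Dex were higher, as were 10.1% of all probe sets, with a change of 0.72 (SE 0.20, adjusted p = 0.239). In number 1 Nfil3 read 46.7 unstimulated, 107 with IL-9 and 61.1 with CCL1, and 41.4, 90.6 and 46.2 in the matching arrays with Dex. There the 2 arrays with IL-9 were the highest, and the fitted IL-9 change over both numbers was 0.57 (SE 0.15, adjusted p = 0.131). Rora, which activates at the same element as NR1D1 represses, changed by -0.72 (adjusted p = 0.368) with Dex in number 2 at 1424034_at. There Dex 2 was by far the lowest, at 31.9, against 64.3 with Dex and IL-9 and 56.6 with Dex and CCL1. Without Dex the signals were 122 unstimulated and 65.6 with IL-9.

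The genes most like each clock gene were taken as the highest Pearson correlations over the 11 arrays among 7506 other genes, as a description, since the arrays share treatments and Dex 2 stands apart. For Per1 they were Serinc3 (r = 0.975), Mdh2 (0.948) and Plcb3 (0.913), and without Dex 2 the values were 0.975, 0.950 and 0.916. For Nr1d1 they were Ptpn14 (0.891), Slc30a9 (0.847) and Usp12 (0.843). For Clock they were Casp8ap2 (0.959), Stag1 (0.955) and Gbp7 (0.955), which fell to 0.821, 0.802 and 0.842 without Dex 2. For Nr1d2, Sacm1l led at 0.948 and 0.893 without Dex 2. Among the members, Nr1d2 and Clock correlated at 0.749, and both were lowest in Dex 2 among the 11 arrays.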

How the data were processed

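The deposited values were MAS5 signal intensity values, per the submitters' processing notes. They came on a linear scale in a table of 11 arrays and a table of 1 (CCL1 2). The MAS5 version is not given in the sources used here. The trimmed mean of each array was 100, so a shift of all genes together could not be seen. After removal of 64 control probe sets, values were taken as log2(signal + 16), and probe sets with a mean above the 40th percentile over 11 arrays (signal 6.32) were tested.

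The fit, in limma 3.58.1 under R 4.3.3, had a mean for each Dex label and replicate number, an IL-9 term and a CCL1 term, with 5 residual degrees of freedom, empirical Bayes moderation along the intensity, and p-values adjusted after Benjamini-Hochberg over 13575 probe sets at 0.05. A second fit added the interactions with Dex. All contrasts of a fit shared its estimate of the spread, since 2 arrays a group estimate it poorly. Both fits were tested on simulated data, in which 200 probe sets carried a known change. Changes of 1 log2 were recovered in 78% and 67% for Dex in number 1 and number 2. The share was 87% for IL-9 and 80% for CCL1, but 36% for the difference between numbers. For the interactions it was 15% with IL-9 and 0% with CCL1, and 81% and 46% for changes of 2 log2. The members named were all probe sets of the 10 genes, and for each gene the 3 most correlated genes were listed. The correlations with Tsc22d3, the examples among the other clock genes and the single differences given for the cytokines were picked once their values were known. The genes and the lists of other clock genes, glucocorticoid targets and markers were chosen with earlier results of these data known. Replicate arrays shared no identical value sets, with a median absolute difference of 0.168 to 0.258 log2. Alternatives were other pseudocounts, filters and normalizations, no trend, CCL1 2 added, each array left out, 1 probe set per gene, and 1 mean per group with and without the replicate number.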

Additional observations from a re-analysis of the deposited data

How the results depend on the processing

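The count of clock probe sets past the threshold for Dex in number 2, which was 2, became 1 with a pseudocount of 1 or of 64, a filter at the 60th percentile, no intensity trend or CCL1 2 added. It became 0 without a filter, and 0 with 1 mean per group, with the replicate number as a block or with no replicate block, and 0 to 1 with an array left out. The count for number 1 versus number 2 without Dex, which was 0, became 1 (Per1) with a pseudocount of 1, quantile normalization, median centring or 1 probe set per gene, and 0 to 2 with an array left out. The counts for number 1 versus number 2 with Dex and for the CCL1 interaction, both 0, ran from 0 to 1 with an array left out, and that for the IL-9 interaction from 0 to 2. Of 190 such recounts 161 stayed and 29 moved; the cause was not tested. No sign of a called value turned. The main fits took the replicate number into account, through a mean for each Dex label and number. Number 1 minus number 2 differences correlated over 0.1 in 5 of 10 pairs of groups (-0.0051 to 0.307). Over all probe sets the 81 calls for Dex in number 2 ran from 29 (without unstimulated 2) to 116 with an array left out. Several clock probe sets, Nr1d1, Per3 and the second ones of Nr1d2 and Tef among them, lie near the filter, where these arrays measure changes poorly.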
